A study of Homo sapiens with 3 samples.

Results

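CCN1, CCN2, ANKRD1, F3 and CRIM1 are genes widely used as readouts of the co-activator YAP and its DNA-binding partners, the TEAD proteins. They were examined in 786-O cells, an established human clear cell renal carcinoma line known for the loss of VHL. The deposited lists of TEAD and H3K27ac peaks were searched for summits within 50 kb of each gene's start site on hg19. The start sites were chromosome 1 position 86046444 for CCN1, chromosome 6 position 132272518 for CCN2, chromosome 10 position 92681033 for ANKRD1, chromosome 1 position 95007413 for F3 and chromosome 2 position 36583370 for CRIM1. The 5 loci held 36 of 35241 TEAD regions and 37 of 52667 H3K27ac regions. The series has 3 libraries, immunoprecipitated for TEAD, immunoprecipitated for the acetylated histone H3K27ac, or input chromatin, and the labels name no treatment or genetic change. Its title concerns how YAP acts on TEAD together with NF-κB. Names inside the TEAD file read TEF1 and TEF3, and the antibody is described no further here. Each antibody had 1 library, so no value below has a replicate check and no test between conditions was possible. The renal identity of the cells was not checked against marker genes, because start sites on hg19 were at hand only for these 5 genes.

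In the Hippo pathway a kinase cascade keeps YAP and its relative TAZ in the cytoplasm; when the cascade is off, they enter the nucleus. YAP and TAZ do not bind DNA themselves and act through TEAD proteins, which recognise the MCAT element, GGAATG, at promoters and distant enhancers. H3K27ac marks nucleosomes that flank active promoters and enhancers. CCN1 and CCN2 encode secreted matricellular proteins that bind integrins. ANKRD1 encodes an ankyrin-repeat protein first known from stressed heart muscle. F3 encodes tissue factor, the cell-surface initiator of coagulation, and CRIM1 encodes a transmembrane protein that binds bone morphogenetic proteins.

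The promoter sequences are shown for the TEAD letters they hold near the start. RefSeq promoters were at hand for 3 of the 5 genes, CCN2, ANKRD1 and F3. The 250 bases upstream of the RefSeq start are printed 5′ to 3′ in the direction of the gene, on the minus strand of GRCh38.p14. Capitals mark GGAATG and the AP-1-like pattern TGANTCA, where N is any base. CCN2 is chr6:131951373-131951622, ANKRD1 is chr10:90921088-90921337 and F3 is chr1:94541760-94542009.

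CCN2: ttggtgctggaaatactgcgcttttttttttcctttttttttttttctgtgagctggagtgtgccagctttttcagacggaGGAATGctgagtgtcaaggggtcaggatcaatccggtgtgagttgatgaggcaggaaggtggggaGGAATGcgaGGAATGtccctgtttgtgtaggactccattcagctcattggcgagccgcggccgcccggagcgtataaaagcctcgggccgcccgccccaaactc

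ANKRD1: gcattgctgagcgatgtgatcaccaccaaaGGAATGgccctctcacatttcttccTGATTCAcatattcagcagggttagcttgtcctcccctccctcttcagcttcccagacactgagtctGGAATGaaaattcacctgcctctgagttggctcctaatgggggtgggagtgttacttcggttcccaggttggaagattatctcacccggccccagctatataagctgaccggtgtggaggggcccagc

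F3: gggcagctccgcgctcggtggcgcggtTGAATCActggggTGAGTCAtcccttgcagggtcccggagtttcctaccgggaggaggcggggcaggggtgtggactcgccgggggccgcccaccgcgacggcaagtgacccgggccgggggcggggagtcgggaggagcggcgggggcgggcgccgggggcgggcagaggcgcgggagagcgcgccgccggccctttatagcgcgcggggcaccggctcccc

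The CCN2 promoter held 3 copies of GGAATG, at 169 to 164, 104 to 99 and 95 to 90 bases upstream of the RefSeq start. The ANKRD1 promoter held 2 copies, at 220 to 215 and 128 to 123 bases upstream, and the AP-1-like letters TGATTCA at 195 to 189. The F3 promoter held no GGAATG. It matched the AP-1-like pattern 2 times, as TGAATCA at 223 to 217 and TGAGTCA at 210 to 204 bases upstream. Both strands were searched. Among 35116 RefSeq promoters of the same length, 11.9% held at least 1 GGAATG, 0.94% at least 2 and 0.0826% at least 3. At least 1 TGANTCA was found in 6.57% and at least 2 in 0.402%. The NF-κB consensus was searched as well, only as GGGRNWYYCC. Here R is A or G, N any base, W A or T, and Y C or T. It matched 1 time in these 3 promoters, at CCN2, on the opposite strand, where the letters GGAATGTCCC at 95 to 86 bases upstream include all of the third GGAATG. At least 1 such match was found in 5.21% of RefSeq promoters. Sites that depart from this consensus were not searched, so ANKRD1 and F3 are not shown to lack NF-κB sites. These matches are letters in a window and not bound sites. The promoters are given on another build than the peaks, so their RefSeq starts were not aligned with the hg19 start sites used here. The F3 TEAD summit lay 676 bp upstream, outside the printed bases, so the letters under it were not searched.

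All 5 genes had a TEAD summit within 1 kb upstream of the start site and an H3K27ac summit within 1 kb downstream of it. The same count over other start sites could not be made, because hg19 positions were at hand only for these 5 genes. The arrangement is therefore not shown to be particular to them. The strength of TEAD at the start differed widely. Enrichment is the authors' fold at the peak summit over the peak caller's local background, and brackets give a 95% counting interval from the reads at the summit. CCN2 had the highest start-site TEAD, 93.4-fold (82.9 to 105), with its summit 99 bp upstream and a region from 132272144 to 132273026 on chromosome 6. It ranked 12 among all 35241 TEAD regions. ANKRD1 followed at 41.7-fold (35.0 to 49.3), 59 bp upstream, in a region from 92680759 to 92681497 on chromosome 10. CCN1 reached 29.9-fold (24.8 to 35.7), 100 bp upstream, in a region of 2937 bp that ran from 86045970 to 86048906 on chromosome 1. The intervals of ANKRD1 and CCN1 overlapped, while the interval of CCN2 lay above both. F3 had 10.4-fold (7.35 to 14.4), 676 bp upstream, from 95007364 to 95008347 on chromosome 1. CRIM1 had the lowest, 4.17-fold (2.36 to 6.92), 433 bp upstream, from 36582710 to 36583040 on chromosome 2. That is a spread of 22.4 times between CCN2 and CRIM1. The TEAD region covered the start position itself at 4 genes, CRIM1 being the exception.

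The summit fold of acetylation at the start sites was alike at 4 genes and low at ANKRD1. The H3K27ac region over the start reached 26.4-fold (21.2 to 32.6) at CCN2, 21.9-fold (17.6 to 26.8) at F3, 21.2-fold (17.5 to 25.5) at CCN1 and 18.8-fold (15.0 to 23.2) at CRIM1. The widths of these regions differed more: 2319 bp at CCN2, 2263 bp at F3, 6231 bp at CCN1 and 4711 bp at CRIM1. Of the 37 H3K27ac regions of the 5 loci, 4 reached 20-fold, against 6.55% of all H3K27ac regions: those of the CCN2, F3 and CCN1 starts and 1 more at CCN1. The intervals of the 4 acetylated starts overlapped one another, and the highest value was 1.41 times the lowest. The summits lay 319, 315, 299 and 596 bp downstream at CCN2, F3, CCN1 and CRIM1. At ANKRD1 no H3K27ac region covered the start. The nearest was 319 bp wide, lay 743 bp downstream and reached 3.92-fold (2.38 to 6.15), with 17 reads at its summit. It began 396 bp from the nearest edge of the ANKRD1 start-site TEAD region and did not touch it. TEAD and H3K27ac at the starts therefore differed clearly in order only at ANKRD1, next after CCN2 in TEAD and lowest in H3K27ac. Among the other 4 genes the overlapping H3K27ac intervals leave the order of acetylation unresolved. TEAD fold was 10.6 times the H3K27ac fold at ANKRD1, 3.54 times at CCN2, 1.41 times at CCN1, 0.477 times at F3 and 0.222 times at CRIM1. The folds come from 2 antibodies, so these ratios only rank the 5 genes. The distance between the TEAD summit and the H3K27ac summit was 399 bp at CCN1, 418 bp at CCN2, 802 bp at ANKRD1, 991 bp at F3 and 1029 bp at CRIM1. The map of the start sites shows these positions.

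**Figure D1:**
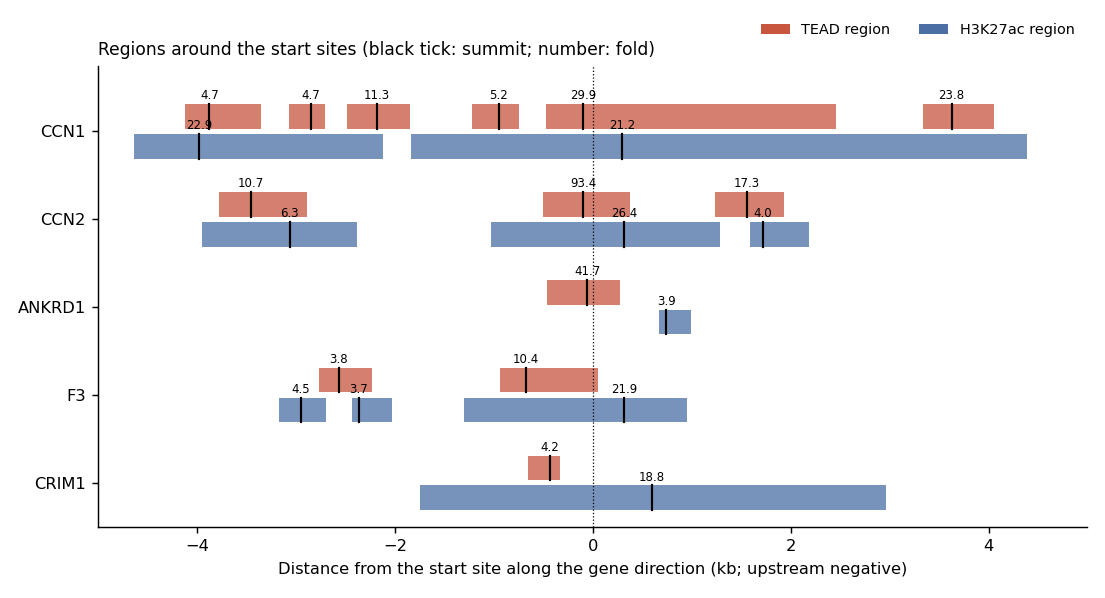
TEAD (red) and H3K27ac (blue) regions within 5 kb of the 5 start sites, drawn to scale along the gene direction in kb, with upstream negative; each black tick is a summit and the number above it is the fold at that summit. The TEAD summit nearest to each start lies upstream and the nearest H3K27ac summit downstream at all 5 genes. How often other start sites show this was not counted. At ANKRD1 the 41.7-fold TEAD region has no H3K27ac region under it.

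The strongest TEAD region lay at the start at CCN2 and ANKRD1 and elsewhere at CCN1, F3 and CRIM1. At CCN1 it lay 26.6 kb downstream, on chromosome 1 from 86072488 to 86073627, at 68.5-fold (61.6 to 76.0), rank 90 of the list. At CRIM1 it lay 15994 bp downstream, on chromosome 2 from 36598892 to 36599788, at 54.0-fold (46.0 to 63.0), rank 252. At F3 it lay 38.2 kb upstream, on chromosome 1 from 95045422 to 95046009, at 15.7-fold (12.1 to 20.02), an interval that overlapped that of the F3 start. The CCN1 and CRIM1 values lay above their own start sites with no overlap of intervals. By fold, the strongest regions stood in the order CCN2, CCN1, CRIM1, ANKRD1 and F3; the intervals of CCN1 and CRIM1 overlapped, as did those of CRIM1 and ANKRD1. By reads at the summit the first 2 changed places. The CCN1 region had 356 reads over a recovered background of 4.21, and the CCN2 region 288 reads over 2.09.

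Across the 5 loci, 10 of 36 TEAD regions reached 20-fold, against 9.26% of all TEAD regions. CCN1 held 4 of them, CRIM1 3, ANKRD1 2 and CCN2 1, and F3 held none. Of these 10 regions, 3 were the region nearest to a start site, 2 lay 1 to 10 kb from the start and 5 lay beyond 10 kb. The median fold over all 36 was 9.85, with a range from 3.11 to 93.4, beside a median of 7.14 in the whole list. The interval on that median, from the ordered values, was 7.13 to 17.3, and neighbouring regions are not independent. In all, 22 of the 36 lay more than 10 kb from the start. Most of each window, which reaches 50 kb to either side, lies beyond 10 kb. This count and the 5 above therefore do not show a preference for distant positions.

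**Figure D2:**
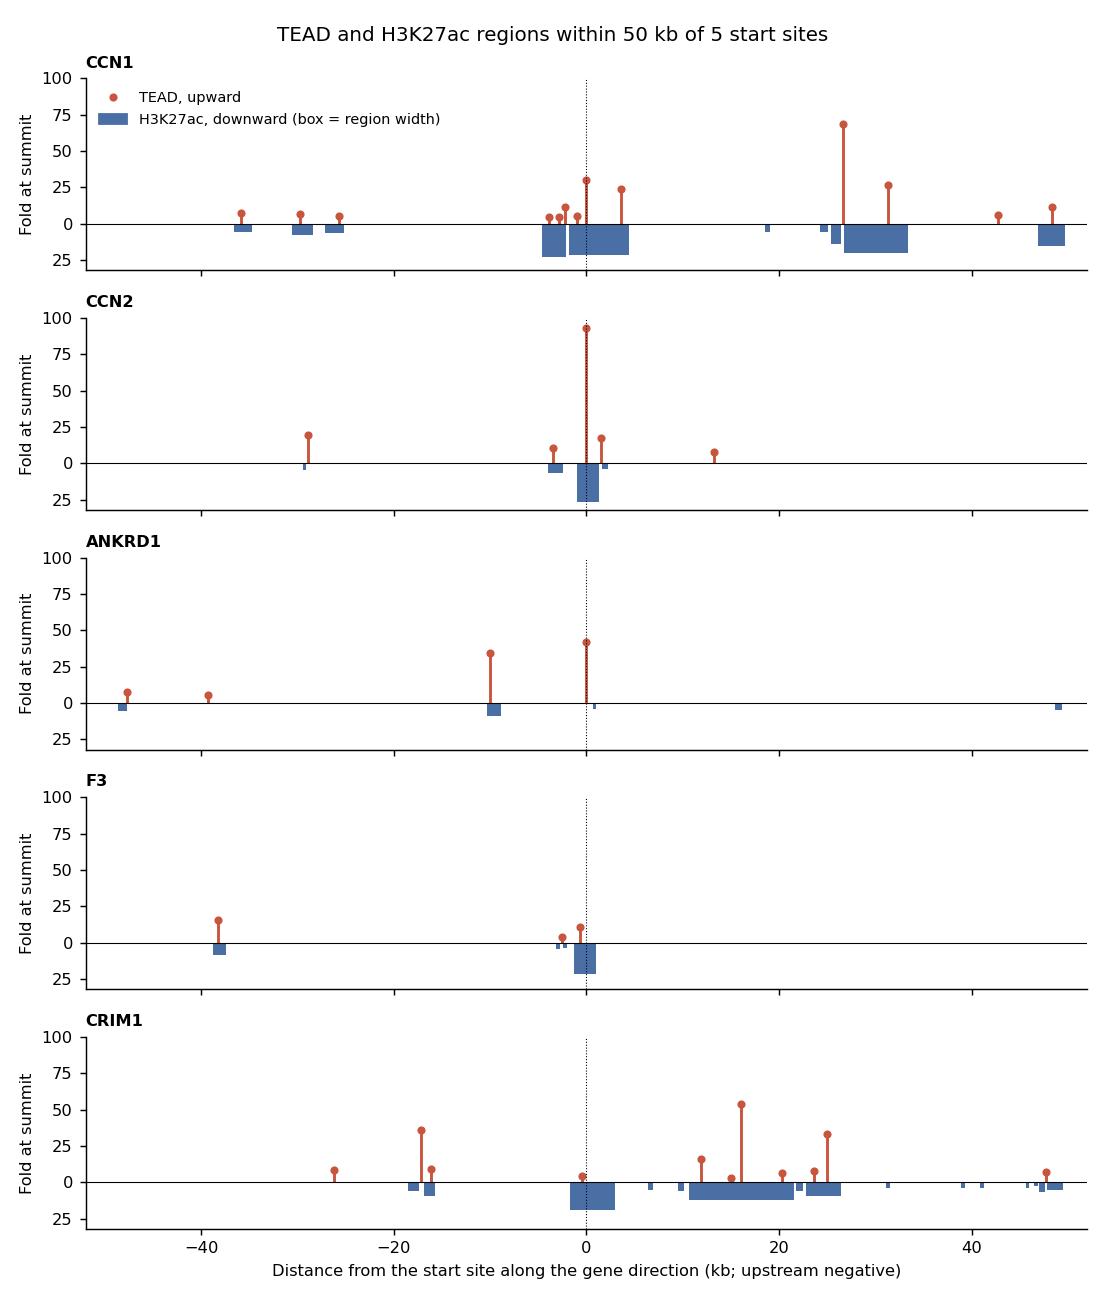
Fold at the summit of every TEAD region (red, upward) and H3K27ac region (blue, downward; box width is region width) against distance from the start site in kb along the gene direction, 1 panel for each gene. TEAD peaks cluster on both sides of the CCN1 start and from 11.9 to 24.9 kb downstream of the CRIM1 start, while F3 and ANKRD1 have TEAD only upstream of or at the start.

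CCN1 had the most TEAD regions, 13, in 3 groups. The first 3 lay 35.9, 29.7 and 25.6 kb upstream, each inside its own H3K27ac region, with TEAD folds of 7.20, 6.53 and 5.51 and H3K27ac folds of 5.73, 7.48 and 6.41. The second group was the 6 TEAD regions between 3.88 kb upstream and 3.63 kb downstream. Their summits lay in 2 H3K27ac regions of 2515 and 6231 bp. The upstream one had its summit 3983 bp from the start and reached 22.9-fold (18.6 to 27.8). That was the highest H3K27ac fold of the CCN1 locus, but its interval overlapped that of the acetylation at the start. The TEAD regions over this upstream H3K27ac region were weaker than the start-site TEAD, at 4.70-, 4.73- and 11.3-fold. Inside the 6231 bp H3K27ac region, TEAD 951 bp upstream of the start was also weak, 5.21-fold. By order in the RefSeq annotation DDAH1 is the protein-coding neighbour on that side, so a region there need not belong to CCN1. In the same group a TEAD region 3.63 kb downstream, on chromosome 1 from 86049778 to 86050495, reached 23.8-fold (18.7 to 29.8), which overlapped the interval of the start-site region. The third group lay 26.6 to 48.4 kb downstream, towards ZNHIT6, the neighbour on the other side. It comprised the 68.5-fold region, a region of 1809 bp at 26.4-fold (21.7 to 31.7) 31.3 kb downstream, and 2 weaker regions of 5.80- and 11.3-fold. The H3K27ac region of 6648 bp in this group reached 19.9-fold (15.95 to 24.5), within the interval of the acetylation at the start. The 5.80-fold region, 42.7 kb downstream, was the 1 TEAD region of the CCN1 locus without H3K27ac; the nearest H3K27ac region was 4040 bp away.

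CCN2 had 5 TEAD regions and 4 H3K27ac regions, and 62.3% of the TEAD summit reads above background lay in the region at the start. For CCN1 the share in its strongest region was 41.1%, for ANKRD1 45.4%, for F3 55.5% and for CRIM1 26.8%. Beside the start-site region, TEAD reached 17.3-fold (13.4 to 22.0) 1.56 kb downstream and 10.7-fold (7.31 to 15.1) 3.46 kb upstream. A region 28.9 kb upstream, on chromosome 6 from 132301147 to 132301689, reached 19.6-fold (15.1 to 25.2). The H3K27ac region beside it was 303 bp wide and 4.47-fold, and it covered 3.68% of the TEAD region's length, with the TEAD summit outside it. The remaining region, 13.3 kb downstream at 8.11-fold, was 10888 bp from the nearest H3K27ac region. H3K27ac covered 4.79 kb of the CCN2 window, against 26.5 kb at CCN1 and 27.8 kb at CRIM1.

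ANKRD1 had 4 TEAD regions, none of them with its summit downstream of the start. The second strongest, 9.99 kb upstream on chromosome 10 from 92690333 to 92691439, reached 34.1-fold (28.6 to 40.3), and its interval overlapped that of the start-site region. The 2 had 136 and 135 reads at their summits, and their order by fold rests on recovered backgrounds of 3.02 and 2.26. Unlike the start, this upstream region had its summit inside H3K27ac, in a region of 1417 bp at 9.16-fold (6.42 to 12.7), the strongest acetylation of the ANKRD1 locus. The other 2 TEAD regions lay 39.3 and 47.6 kb upstream at 5.56- and 7.27-fold, on the side of PCGF5, the neighbouring gene. H3K27ac covered 3.34 kb of the ANKRD1 window, the least of the 5.

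F3 had 3 TEAD regions, all upstream. The middle one, 2.57 kb upstream, was weak at 3.84-fold (2.39 to 5.89) and lay between 2 narrow H3K27ac regions of 3.68- and 4.53-fold. The distant one, 38.2 kb upstream on the side of SLC44A3, was acetylated, with its summit in a 1268 bp H3K27ac region at 8.22-fold (5.98 to 11.04). All 4 H3K27ac regions of the F3 locus overlapped TEAD, beside 41.7% of all H3K27ac regions. The 2 narrow ones overlapped the same weak TEAD region. All 3 TEAD regions overlapped H3K27ac, beside 68.4% of all TEAD regions. Both counts are small. F3 thus paired a start-site acetylation of 21.9-fold with the lowest maximum of TEAD among the 5 loci; the maximum at CCN2 was 5.96 times higher.

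CRIM1 had 11 TEAD and 15 H3K27ac regions. Its strong TEAD regions lay on both sides of the start, and TEAD at the start itself was weak. Upstream, a region 17.2 kb away, on chromosome 2 from 36565816 to 36566458, reached 36.1-fold (29.9 to 43.3), with its summit outside an H3K27ac region of 5.74-fold. A stronger H3K27ac region, 9.64-fold, began at 36566482, just past the other end of this TEAD region, and did not touch it. Downstream, an H3K27ac region of 10983 bp at 12.3-fold (9.07 to 16.3) held 4 TEAD summits, with TEAD folds of 15.8, 3.11, 54.0 and 6.58 from 11.9 to 20.3 kb. Beyond a region of 654 bp at 5.91-fold without TEAD, a region of 3667 bp at 9.33-fold held 2, the second of them at 33.2-fold (28.1 to 39.0) 24.9 kb downstream. Joined over gaps of up to 12.5 kb, the H3K27ac regions around the CRIM1 start formed a domain of 61.3 kb with 16 regions and 9 TEAD summits, which ran past the limit of 50 kb. The same joining gave 9.03 kb at CCN1, 6.14 kb at CCN2, 11.3 kb at ANKRD1 and 4.13 kb at F3. Of the 15 H3K27ac regions, 7 overlapped TEAD, a share near the 41.7% of all H3K27ac regions, and ANKRD1 had 2 of 4. The 8 without TEAD at CRIM1 were narrow (299 to 654 bp) and weak (2.53- to 6.08-fold).

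Over the 5 loci, 31 of 36 TEAD regions shared at least 1 bp with H3K27ac, 86.1% (95% Wilson interval 71.3 to 93.9%), against 68.4% of all TEAD regions. For 24 of the 36 the summit itself lay inside H3K27ac, 66.7% (50.3 to 79.8%), an interval that includes the 55.3% of the whole list. The intervals take regions as independent, and the 5 genes were chosen as known targets, so no test was made. The 36 regions were wider than the list, with a median of 579 bp against 463 bp, and whether width accounts for the difference in overlap was not tested. Of the 10 regions of at least 20-fold, 9 overlapped H3K27ac, beside 83.9% of all TEAD regions of that strength; the exception was the ANKRD1 start. The 5 TEAD regions without H3K27ac were 2 at ANKRD1 and 1 each at CCN1, CCN2 and CRIM1. Apart from the ANKRD1 start they ranged from 5.56- to 8.32-fold. In the other direction, 25 of 37 H3K27ac regions overlapped TEAD, 67.6% (51.5 to 80.4%), against 41.7% of all H3K27ac regions. The 12 without TEAD were 8 at CRIM1 and 2 each at CCN1 and ANKRD1, from 299 to 843 bp wide and from 2.53- to 6.08-fold. A wider H3K27ac region has more room for a TEAD region, and no comparison at equal width was made.

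**Figure D3:**
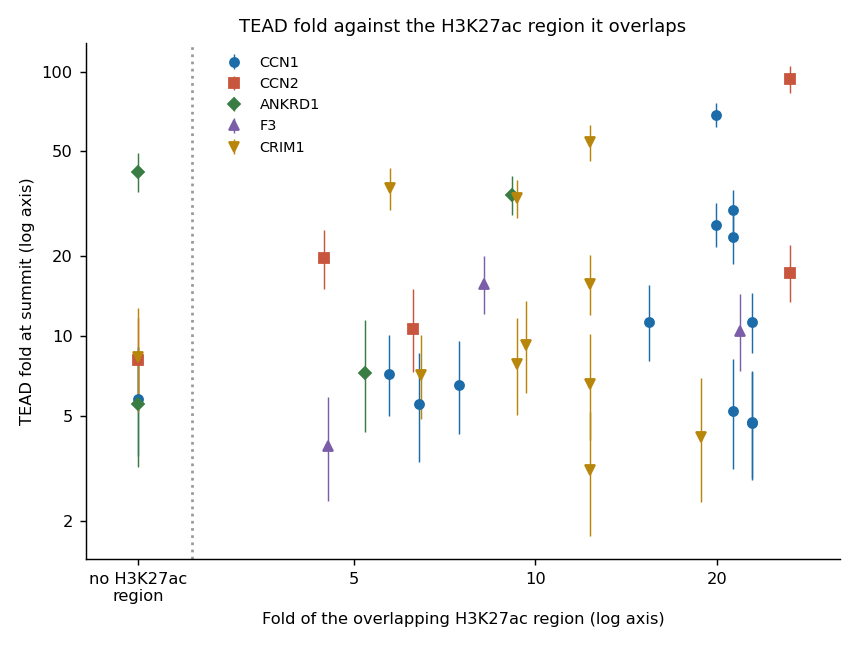
TEAD fold at the summit against the fold of the H3K27ac region it overlaps (the stronger one where there are 2), both on log axes, for the 36 TEAD regions of the 5 loci; bars are 95% counting intervals and the column at the left holds the 5 TEAD regions without H3K27ac. Over H3K27ac regions near 20-fold TEAD ranged from 4.17-fold (CRIM1 start) to 68.5-fold (CCN1, 26.6 kb downstream), and the ANKRD1 start stands alone at the upper left.

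A group of 4 TEAD regions bridged neighbouring H3K27ac regions with the summit in the gap between them, 1 each at CCN1, CCN2, F3 and CRIM1, against 4.26% of all TEAD regions. The gaps were 251, 298, 261 and 143 bp wide in that order. The CCN1 example is the 68.5-fold region, which lay between H3K27ac regions of 13.9- and 19.9-fold. At CCN2 the 17.3-fold region lay between the acetylation of the start and a region of 4.05-fold. The F3 and CRIM1 examples were weak, 3.84- and 7.13-fold. The bridging position thus occurred at both ends of the range of TEAD strength. Over all 36 regions the median distance from the TEAD summit to the nearest H3K27ac summit was 474 bp.

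The number of TEAD regions set CCN1 and CRIM1 apart from the other 3 loci. For scale, the same count was made within 50 kb of each of the 3450 H3K27ac summits of at least 20-fold, which gave a median of 4 TEAD regions and a 90th percentile of 9. CCN1 with 13 exceeded 97.3% of these windows and CRIM1 with 11 exceeded 94.8%. CCN2 with 5 exceeded 60.8%, ANKRD1 with 4 exceeded 48.9% and F3 with 3 exceeded 34.1%. CRIM1 and ANKRD1 themselves had no H3K27ac region of 20-fold. Against windows on all 52667 H3K27ac summits, the counts exceeded 98.5% at CCN1, 96.6% at CRIM1, 65.9% at CCN2, 53.2% at ANKRD1 and 37.7% at F3. The windows overlap one another and are not start sites, so the percentages are descriptions. Among the windows on summits of at least 20-fold, the count of H3K27ac regions placed CRIM1 (15) above 92.1% and CCN1 (10) above 75.7%. Each of the other 3 loci, with 4, stood above 30.4%.

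**Figure D4:**
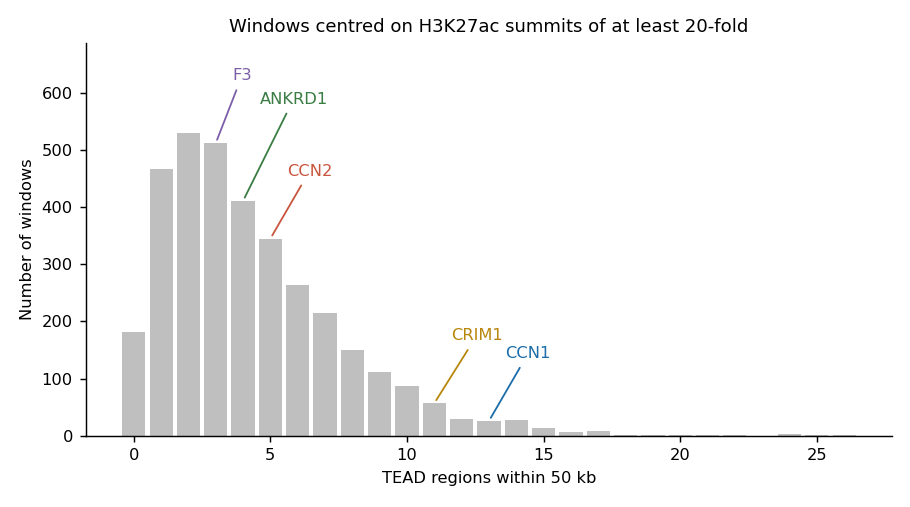
Number of TEAD regions within 50 kb (horizontal axis) in windows centred on the 3450 H3K27ac summits of at least 20-fold, as a histogram of windows, with the counts of the 5 loci marked. F3, ANKRD1 and CCN2 fall in the body of the distribution at 3, 4 and 5, and CRIM1 and CCN1 in its upper tail at 11 and 13.

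The limit of 50 kb passed between called regions, and at CRIM1 it cut through the joined H3K27ac domain. The outermost TEAD regions counted lay 48.4 kb from the CCN1 start (11.3-fold) and 47.7 kb from the CRIM1 start (7.13-fold). The nearest left out lay 53.4 kb upstream of CCN1 (16.03-fold) and 56.0 kb downstream of CRIM1 (12.1-fold). For H3K27ac the outermost counted lay 49.1 kb from the ANKRD1 start (5.05-fold), and the nearest left out lay 52.4 kb from the CRIM1 start (11.5-fold).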

How the data were processed

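H3K27ac, TEAD and input chromatin of 786-O cells were sequenced, and the authors' peak lists of the H3K27ac and TEAD libraries were used, each called on 1 library. The submitters' processing notes list hg19 as the build and MACS2, Bowtie2 2.4.5 and fastp as tools; neither thresholds nor the control used for calling is stated there. The authors' deposited columns used were the summit position, the fold enrichment there, and its −log10 p and −log10 q; their deposited whole-number score was not used. Peaks on chromosome Y (123 for TEAD, 183 for H3K27ac) were left out. A region is a deposited peak, with positions counted from 1.

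The 5 genes, their start sites and the lists were chosen with earlier results of these data known. Every region with its summit within 50 kb was counted; the strongest and the nearest region of each locus are given in full. Other YAP targets named in the plan were not analysed here, since hg19 start sites were not at hand. CCN1 and CRIM1 were oriented from general knowledge and the other 3 genes from RefSeq.

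Summit reads k and background b were recovered from both columns, by requiring a whole k, a fold of (k + 1)/(b + 1) and a Poisson upper tail at k equal to p; this held within 0.002 of the −log10 p for 100% of regions and was tested on simulated data. The median summit had 24 reads in both lists; total depth is unknown. The 95% Poisson and Wilson intervals cover counting error only, and not variation between libraries. The Poisson intervals vary the summit reads and hold the recovered background fixed, so the error of the background is left out. Reads carry no molecular identifiers. Overlap means at least 1 shared bp. Alternatives changed the distance, the threshold, the overlap rule and the loci included. Python 3.11.15, scipy 1.17.1 and pandas 2.3.3 were used.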

Additional observations from a re-analysis of the deposited data

How the results depend on the processing

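Of 28 alternatives, 18 were planned and 10, which left out each locus in turn, were chosen after seeing the data; 24 stayed within the interval of the reported value, or within 1.5 times of a count. The other 4 were counts at another distance, which change with the window, and the overlap share under the summit rule. Most alternatives reuse the same regions, so staying within these wide intervals is a weak check. Within 25 kb there were 23 TEAD and 20 H3K27ac regions, and within 100 kb 61 H3K27ac regions. Requiring the TEAD summit inside H3K27ac gave 66.7% in place of 86.1%, below the interval of 71.3 to 93.9%. The share thus depends on the overlap rule. Otherwise the overlap share ran from 77.8%, with at least 50% of the TEAD region overlapped, to 91.3%, within 25 kb, and the median TEAD fold from 8.11, within 100 kb, to 10.7, within 25 kb. No paired analysis was possible because each antibody had 1 library. Depth limits the weakest regions most: the start-site TEAD of CRIM1 rests on 13 reads and the nearest H3K27ac of ANKRD1 on 17, and a stretch without a called region is not shown to lack signal.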
